A study of Homo sapiens with 17 samples.

Results

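The 6 RNA-sequencing libraries described here were the controls of 3 experiments in KYSE140, a human esophageal squamous carcinoma line. They were chosen by their labels alone, as the KYSE140 libraries without a targeted change, and made up 6 of the 13 KYSE140 libraries and 6 of all 17 libraries. The CRISPRi controls (2 libraries, guides sg-NC#1 and sg-NC#2) came from cells that stably carried an inactive Cas9 fused to repressor domains, with guides that have no site in the genome. The CRISPR controls (2 libraries) came from cells with stable, active Cas9 and a guide that cuts outside the genes studied, sg-AAVS1 in an intron of PPP1R12C or sg-Chr2.2 on chromosome 2. The DMSO controls (2 libraries, cultures A and B) were the vehicle arm of a drug experiment, exposed to DMSO for 6 h, and no Cas9 vector was stated for them. Cells of both Cas9 groups had passed lentiviral transduction and selection with blasticidin and puromycin, which was not stated for the DMSO cultures. Within each Cas9 group the libraries carried different guides. Between groups, Cas9 form, guides, selection and experiment changed together and cannot be told apart. The study describes its RNA sequencing of the CRISPRi cells as independent biological experiments, and for the CRISPR and DMSO libraries this is not given in the sources used here. The p-values measure only the spread between the libraries of a group.

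Squamous carcinoma cells of the esophagus keep much of the program of the basal layer of a stratified epithelium. They express basal keratins, which build the filaments of the cell, and the transcription factors SOX2 and TP63. Keratinocytes also switch on keratins of wounds and of rapid growth, secrete ligands of the EGF receptor and chemokines, and tune the MAP kinase pathway through inhibitors that the pathway itself induces. Several of these programs respond to culture density, medium and stress, so that control cultures of a line need not be alike.

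Total expected counts, the read counts estimated per gene, ranged from 7260730 in the sg-Chr2.2 library to 11572505 in DMSO culture B. A gene with 3 counts stood at 0.259 to 0.413 CPM, which is the count relative to all counts of its library, and levels below that were not measurable. Between 13612 and 14016 genes reached 1 TPM (a level scaled to transcript length and library total). Mitochondrially encoded genes took 3.758% to 5.285% of counts, lowest in the CRISPR libraries. The 13 squamous markers, such as KRT5 and TP63, summed to 5993 to 6730 TPM in every library. The summed levels of markers of other cells were lower, at 0.33 to 0.71 TPM for endothelial cells (5 genes), 2.78 to 9 TPM for blood cells (10 genes), 32.75 to 49.77 TPM for fibroblasts (10 genes) and 27.91 to 36.74 TPM for glandular and neural cells (10 genes). The defining fibroblast genes COL1A2, COL3A1, DCN and LUM did not pass the filter on low counts, but the 3 fibroblast genes that did, COL1A1, THY1 and PDGFRA, were each called in both contrasts with CRISPR, the first pair lower and PDGFRA higher in CRISPR. Their part in the results was not tested.

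The 2 libraries of a group were closer to each other than to any other library. Distance was measured as the SD, over 11129 genes averaging 50 counts or more, of the log2 ratio of scaled CPM. It was 0.1969 between the CRISPRi libraries, 0.2283 between the CRISPR libraries and 0.1857 between the DMSO libraries. Between CRISPRi and DMSO libraries it was 0.3007 to 0.3393, and between CRISPRi and CRISPR libraries 0.3607 to 0.4025. The CRISPR and DMSO libraries lay farthest apart, at 0.4771 to 0.5197. Pairs within a group also differed by more than sampling noise (chi-square per degree of freedom 2.86 to 3.23, against 13.1 to 33.9 between groups), so every library was counted as 1 replicate.

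**Figure D1:**
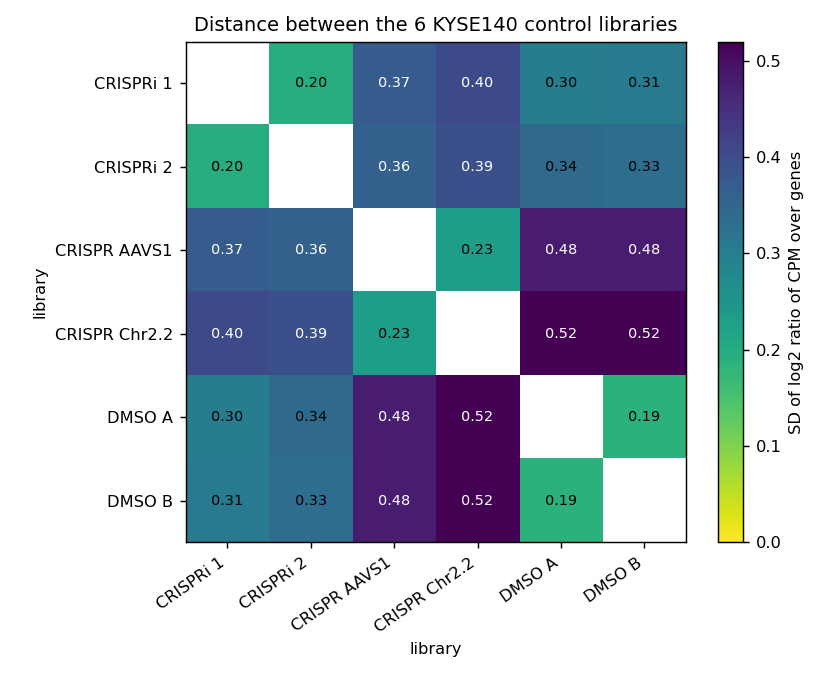
Matrix of distances between the 6 control libraries, where each cell holds the SD of the log2 ratio of CPM over 11129 genes and darker cells are larger. The 3 pairs within a group are at 0.2283 or less, the CRISPRi and DMSO pairs at 0.3007 to 0.3393, and the CRISPR and DMSO pairs at 0.4771 or more.

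All 6 libraries were fitted together and the 3 pairwise contrasts were tested over 13957 genes with the edgeR quasi-likelihood test. Calls required more than a 1.5-fold difference together with a p-value, adjusted after Benjamini and Hochberg, below 0.05. Against the CRISPRi controls, the CRISPR controls differed in 1092 genes (7.82% of those tested), of which 532 were higher (3.81%) and 560 lower (4.01%). The DMSO controls differed from the CRISPRi controls in 595 genes (4.26%), with 230 higher (1.65%) and 365 lower (2.62%). The contrast of DMSO with CRISPR controls held the most calls, 2072 genes (14.8%), with 995 higher (7.13%) and 1077 lower (7.72%) in DMSO. In a fit to log2(TPM + 1) with limma the share of calls that were higher in DMSO fell from 48% to 27.3% in this contrast, and from 38.7% to 22.9% against CRISPRi. In that fit the median log2 change of genes averaging 50 counts or more was itself -0.128 in DMSO against CRISPR. A joint test of any difference called 2303 genes (16.5%). Among them the CRISPRi mean most often lay between the other groups: in 917 genes the CRISPR mean was highest and the DMSO mean lowest, and in 791 genes the reverse order held. The 3 contrasts share libraries and are therefore not independent of each other.

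Gene lists covering squamous identity, signalling, stress, metabolism and growth were counted in each contrast and read against the shares of all genes given above. A listed gene too low for the filter in every group was not tested, and one that passed through a single high group was bound to differ, so shares over tested members describe these libraries only. In the contrast of DMSO with CRISPR, the lists with the largest shares called lower were immediate early genes (17 of 28 tested), inflammatory cytokines (9 of 15), keratins (9 of 16), EGFR ligands and receptors (5 of 9) and replication-dependent histones (9 of 17), beside 7.72% of all genes. Ribosomal proteins stood at the other end, with 0 of 46 called in any contrast.

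**Figure D2:**
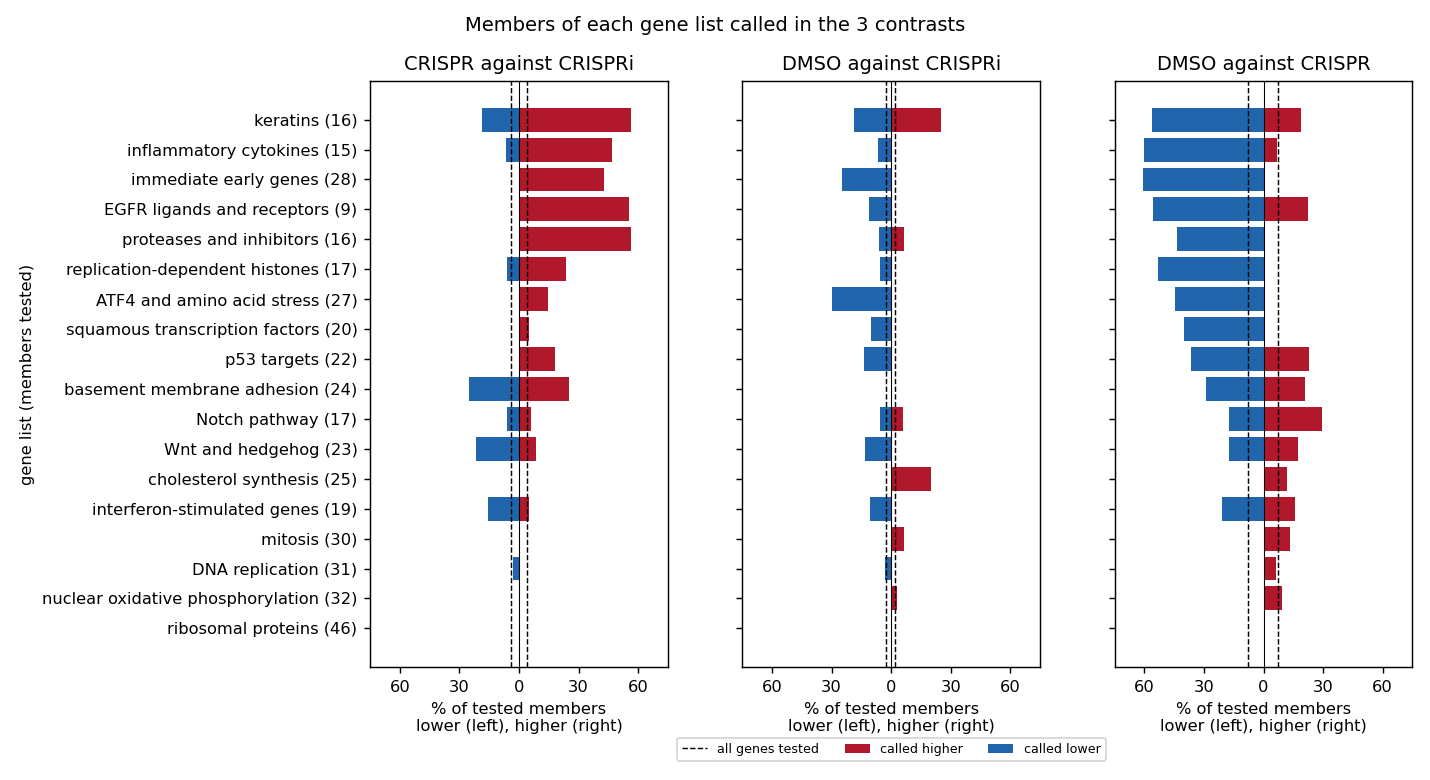
Percent of the tested members of 18 gene lists called higher (red, right) or lower (blue, left) in each contrast, with the number tested in parentheses and dashed lines at the percent of all genes called in that direction. In the right panel the immediate early bar reaches 17 of 28 members lower in DMSO and none higher, while ribosomal proteins have no bar in any panel.

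The keratins are the intermediate filament proteins of epithelia, and many of them differed between the controls. Of 16 keratins tested, 9 were higher and 3 lower in CRISPR than in CRISPRi (4 higher, 3 lower in DMSO against CRISPRi, and 3 higher, 9 lower in DMSO against CRISPR). KRT15, a keratin of basal epithelial cells, was measured at 207.9 and 171 TPM in the CRISPRi libraries, 14.89 and 16.15 TPM in the CRISPR libraries, and 544.6 and 573.6 TPM in the DMSO libraries. The 3 groups did not overlap, and the log2 fold change was -3.76 ± 0.13 (SE) for CRISPR over CRISPRi and 5.49 ± 0.12 for DMSO over CRISPR (edgeR quasi-likelihood, Benjamini-Hochberg adjusted p = 2.75e-15 and 4.4e-19). KRT13, the keratin of the suprabasal layers of the esophagus, stood at 47.9 and 37.03, 13.29 and 19.4, and 185.3 and 174.4 TPM in the same order. It was 4.82-fold higher in DMSO than in CRISPRi and 12.6-fold higher in DMSO than in CRISPR, again with no overlap. KRT19, a keratin of simple and basal epithelia, had the same order at a higher level, with 600.5 and 503.8 TPM in CRISPRi, 278.6 and 305.1 in CRISPR and 837.3 and 840.5 in DMSO. Expected counts of KRT15 were not whole in some libraries, which marks reads shared with other genes, whereas those of KRT13 and KRT19 were whole.

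These 3 genes are immediate neighbours. On chromosome 17 (GRCh37, minus strand) KRT13 lies at chr17:39657233-39661957, KRT15 at chr17:39669997-39678781 and KRT19 at chr17:39679869-39684560. The next keratins tested along the same strand, KRT14 (chr17:39738531-39743147), KRT16 (chr17:39766030-39772151) and KRT17 (chr17:39775694-39781094), were all higher in CRISPR than in CRISPRi, with log2 fold changes of 0.83, 1.21 and 0.68. KRT16, a keratin of wounded and fast-growing epithelium, was measured at 16.68 and 18.62 TPM in CRISPRi, 36.31 and 47.72 in CRISPR, and 12.74 and 12.15 in DMSO. KRT17 broke the pattern. It rose to 1600 and 1708 TPM in CRISPR and 1583 and 1567 in DMSO from 1027 and 999.4 in CRISPRi, and did not pass the test between CRISPR and DMSO.

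In the type II cluster on chromosome 12, KRT6A, KRT6B and KRT6C, the partners of KRT16 and KRT17 in wounds, were each higher in CRISPR than in CRISPRi and in DMSO. KRT6A was among the most abundant keratins, at 2217 and 2282 TPM in CRISPRi, 4076 and 4070 in CRISPR and 1966 and 2037 in DMSO (log2 fold change 0.83 ± 0.04 for CRISPR over CRISPRi, -0.89 ± 0.05 for DMSO over CRISPR). The KRT6 genes, KRT14, KRT16 and KRT17 share reads with near-identical copies, and their split between genes is uncertain. KRT7, a keratin of glandular epithelia, was lowly expressed yet separated, at 8.83 and 12.84 TPM in CRISPR against 1.45 to 2.9 TPM in the other 4 libraries. KRT5, the basal keratin which with KRT14 forms the filaments of basal cells, ran from 2398 to 3476 TPM and was not called in any contrast, with its largest log2 difference at 0.58 ± 0.05 in DMSO over CRISPR, just under the fold threshold, which it passed without the second CRISPRi library (0.59), the AAVS1 library (0.6) or DMSO culture A (0.61).

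**Figure D3:**
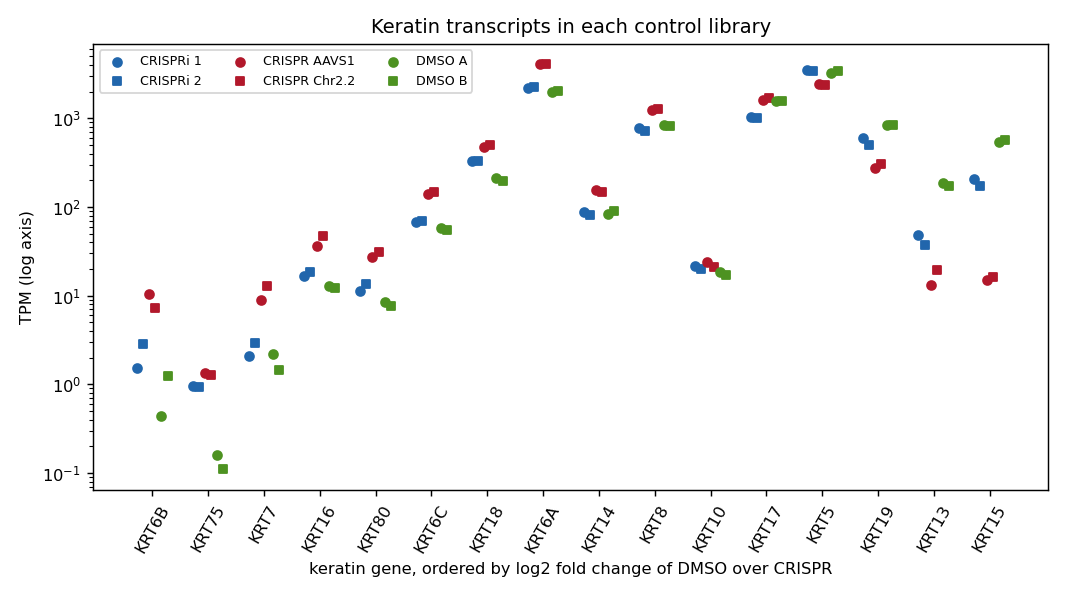
TPM of 16 keratins in each of the 6 control libraries on a log axis, ordered by the log2 fold change of DMSO over CRISPR, with colours for groups and circles and squares for the 2 libraries of a group. KRT15, KRT13 and KRT19 at the right are highest in DMSO and lowest in CRISPR, and KRT6A, KRT7 and KRT16 are highest in CRISPR.

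Among cornified envelope genes, which build the outer shell of differentiated keratinocytes, 18 of 26 did not pass the filter. Of the 8 tested, 3 were higher in CRISPR than in CRISPRi, and in DMSO 1 was higher and 2 lower than in CRISPRi, and 2 higher and 3 lower than in CRISPR (median log2 fold change -0.07). CNFN (cornifelin) was highest in DMSO, at 11.04 and 13.84, 10.33 and 13.12, and 23.06 and 26.27 TPM, a call against CRISPR that was lost in a fit of all 13 KYSE140 libraries, and TGM1, the transglutaminase that links envelope proteins, was also higher in DMSO than in CRISPR. SPRR1B, a small proline-rich envelope protein, reached 97.3 and 74.34 TPM in CRISPR, against 13.08 and 26.24 in CRISPRi and 3.91 and 4.23 in DMSO (log2 fold change -4.28 ± 0.26 for DMSO over CRISPR, with reads shared with other genes). SPRR3, of the same family, had 1.71 and 3.7 TPM in CRISPRi, 15.3 and 6.42 in CRISPR, and 0 and 0.74 in DMSO. Its difference between DMSO and CRISPR was large but imprecise, -5.08 ± 0.72 on the log2 scale, and was -4.38 without the AAVS1 library, -4.14 without DMSO culture A and -8.62 without culture B. The elafin gene PI3 and SLPI, inhibitors of neutrophil elastase secreted by epithelia, moved with them. PI3 was at 11.25 and 12.78 TPM in CRISPR and at 0.31 and 0.32 in DMSO, and SLPI at 19.89 and 22.79 against 2.08 and 1.8.

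CXCL14, a chemokine made by resting epithelia, was the most abundant inflammatory gene and went the opposite way to most of its list. It was measured at 2783 and 2539 TPM in CRISPRi, 911.4 and 901.6 in CRISPR, and 3643 and 3748 in DMSO. The CRISPR libraries were clearly lowest, with a log2 fold change of 2.16 ± 0.05 for DMSO over CRISPR (edgeR quasi-likelihood, Benjamini-Hochberg adjusted p = 3.27e-18). SLC25A48, a mitochondrial carrier gene, had the same order, with 76.87 and 74.2, 14.08 and 21.05, and 120.6 and 109.4 TPM, and a log2 fold change of 3.09 ± 0.13 for DMSO over CRISPR. In RefSeq promoters (build GRCh38.p14) one start of SLC25A48, chr5:135579172 on the plus strand, lies 181 bases from the start of CXCL14, chr5:135578991 on the minus strand, so the genes are read away from each other. In the GRCh37 annotation the CXCL14 gene (chr5:134906369-134914969, minus strand) lies within the span of SLC25A48 (chr5:134812603-135225459, plus strand). The strand setting of the counting is not given in the sources used here, so reads of the pair cannot be told apart with certainty, although neither had a fractional expected count in any of the 6 libraries.

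A window between both starts is shown because the genes moved together, with the windows of IL8 and MMP10, which moved the other way. The capitals mark the AP-1 element TGANTCA, which reads the same on both strands and is bound by JUN and FOS family proteins. These windows were chosen after their values were seen, and a match describes letters only.
CXCL14 (chr5:135579047-135579113, minus strand): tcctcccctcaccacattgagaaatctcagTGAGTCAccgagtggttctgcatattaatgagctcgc
IL8, named CXCL8 in RefSeq (chr4:73740402-73740468, plus strand): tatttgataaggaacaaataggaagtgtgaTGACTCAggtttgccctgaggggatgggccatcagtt
MMP10 (chr11:102780659-102780725, minus strand): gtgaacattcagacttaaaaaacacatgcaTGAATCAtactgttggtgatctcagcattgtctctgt
The element starts 92, 137 and 67 bases before the gene start, respectively. The same element was thus present upstream of genes that were highest in CRISPR and of one that was lowest there. Of 27305 genes with a promoter of 250 bases before to 50 after a start in that table, 9.37% held it. Of 21 immediate early genes with such a promoter, 2 held it (9.52%), and of the 11 called lower in DMSO than in CRISPR, 0 did.

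Immediate early genes are switched on within minutes by growth factor signalling, and many of them encode AP-1 subunits or inhibitors that feed back on the MAP kinase pathway. Of 28 tested, 12 were higher and 0 lower in CRISPR than in CRISPRi (median log2 fold change 0.45, beside 0.01 for all genes). In DMSO against CRISPRi 0 were higher and 7 lower (median -0.26, all genes 0), and in DMSO against CRISPR 0 were higher and 17 lower (median -0.76, all genes 0.01). IER3, a stress-induced survival gene, was measured at 80.45 and 87.09 TPM in CRISPRi, 225.7 and 201.1 in CRISPR and 67.16 and 65.2 in DMSO. The CRISPR libraries stood apart from the other 4, with log2 fold changes of 1.34 ± 0.08 over CRISPRi and, for DMSO over CRISPR, of -1.57 ± 0.08 (edgeR quasi-likelihood, Benjamini-Hochberg adjusted p = 4.81e-11 and 1.32e-12). JUN, the AP-1 subunit, had the same shape, with 30.27 and 33.4 TPM in CRISPR against 12.08 to 13.09 TPM in the other 4 libraries. Its partner FOSL1 was graded across all groups instead, at 9.97 and 11.81 in CRISPRi, 31.35 and 30.66 in CRISPR and 5.35 and 6.35 TPM in DMSO.

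Some feedback inhibitors and ETS factors of the list were lowest in DMSO. Over the whole list, 7 of 28 members were called lower in DMSO than in CRISPRi and 8 had a log2 fold change above 0. DUSP6, the phosphatase of ERK, was measured at 35.82 and 39.98 TPM in CRISPRi, 59.48 and 64.96 in CRISPR, and 21.26 and 13.12 in DMSO. It differed in all 3 contrasts, by 0.83 ± 0.09, -0.97 ± 0.10 and -1.80 ± 0.09 on the log2 scale. SPRY4, a Sprouty inhibitor of receptor signalling, fell to 1.46 and 0.94 TPM in DMSO from 3.81 and 4.38 in CRISPRi and 8.41 and 9.8 in CRISPR. ETV4 and ETV5, ETS factors induced by ERK, were not called between CRISPR and CRISPRi but were 2.17- and 2.24-fold lower in DMSO than in CRISPRi. ETV4 was at 62.81 and 74.83 TPM in CRISPRi, 99.09 and 97.69 in CRISPR, and 29.19 and 27.61 in DMSO. Further genes of this kind outside the list, found by the size of their change, were also lower in DMSO than in both other groups. ETV1, the closest relative of ETV4 and ETV5, had 22.02 and 20.19, 24.01 and 21.07, and 10.15 and 6.37 TPM, and SPRY1 had 9.45 and 9.53, 7.08 and 9.71, and 2.86 and 2.05 TPM. LRIG1, a transmembrane inhibitor of EGFR, showed the same order, with 9.25 and 12.22 TPM in DMSO against 19.48 to 28.17 TPM elsewhere. FOSL2, JUND and KLF2 were not called in any contrast.

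In DMSO against CRISPR, EGFR ligands were lower and 2 of the receptors higher. Of 9 genes tested, 5 were higher in CRISPR than in CRISPRi, and in DMSO against CRISPR 5 were lower and 2 higher. AREG (amphiregulin), the most abundant ligand here, stood at 196.3 and 226.7 TPM in CRISPR, against 73.19 and 78.1 in CRISPRi and 67.75 and 65.25 in DMSO. The log2 fold change of CRISPR over CRISPRi was 1.48 ± 0.08, while DMSO and CRISPRi did not pass the test (-0.07 ± 0.09). AREG counts were not whole in some libraries. BTC (betacellulin), NRG1 (neuregulin), TGFA and ERRFI1, an inhibitor of EGFR that the receptor induces, were also higher in CRISPR than in both other groups. BTC had 8.91 and 6.3, 18.51 and 20.02, and 3.24 and 4.8 TPM in CRISPRi, CRISPR and DMSO. For TGFA the AAVS1 library carried 11.05 TPM, but the sg-Chr2.2 library at 9.38 TPM was level with the second CRISPRi library at 9.33 TPM. The receptors EGFR and ERBB2 were higher in DMSO than in CRISPR, with log2 fold changes of 0.60 ± 0.06 and 0.61 ± 0.08. EGFR was at 105.7 and 106.3, 88.51 and 86.98, and 111.6 and 120.5 TPM, and its call was lost without the sg-Chr2.2 library or without DMSO culture B (log2 fold change 0.56 each), with scaling by library size alone (0.55) and with limma on log2 TPM (0.4).

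**Figure D4:**
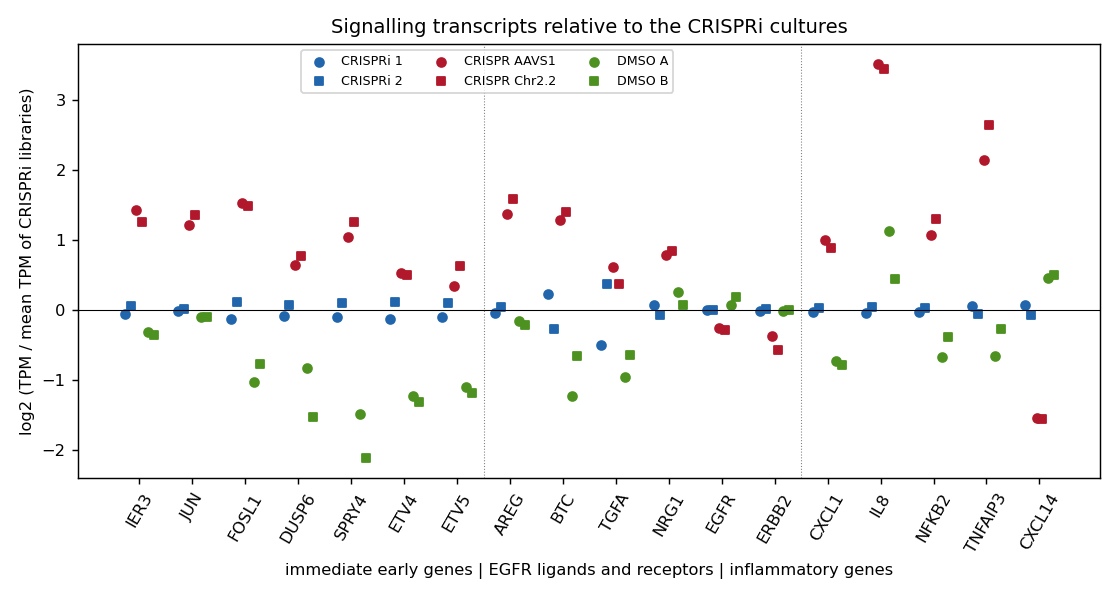
Log2 ratio of TPM to the mean of the 2 CRISPRi libraries for 18 immediate early, EGFR family and inflammatory genes, with 1 point per library and colours for groups. AREG, IER3 and IL8 are above 0 in both CRISPR libraries, DUSP6, SPRY4, ETV4 and ETV5 are below 0 in both DMSO libraries, and CXCL14 and EGFR run the other way.

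Inflammatory genes were mostly highest in CRISPR. Of 15 tested, 7 were higher and 1 lower in CRISPR than in CRISPRi (median log2 fold change 0.91), and in DMSO against CRISPR 1 was higher and 9 lower (median -1.54). Only 11 of the 15 passed the filter in a fit of the CRISPRi and DMSO libraries alone. The rest were tested only with the CRISPR libraries included, so these counts depend partly on the filter. With a filter at a mean of 50 counts, 5 members remained, with medians of 0.94 and -1.54 in the same contrasts. IL8, the neutrophil chemokine, was measured at 1.1 and 1.16 TPM in CRISPRi, 12.99 and 12.37 in CRISPR and 2.48 and 1.53 in DMSO. It was 11-fold higher in CRISPR than in CRISPRi (log2 fold change 3.46 ± 0.28, edgeR quasi-likelihood, Benjamini-Hochberg adjusted p = 7.21e-09), and the CRISPR libraries did not overlap the rest. CXCL1, a related chemokine, was expressed far more strongly, at 224.4 and 231.6 in CRISPRi, 455.2 and 422.1 in CRISPR and 137.8 and 132.4 TPM in DMSO, and differed in all 3 contrasts. NFKB2 and TNFAIP3, a subunit and an inhibitor of the NF-kappaB pathway that the pathway induces, were both higher in CRISPR than in the other groups. TNFAIP3 had 9.75 and 13.71 TPM in CRISPR against 1.39 to 2.28 TPM elsewhere, and NFKB2 had 40.01 and 46.86 against 11.97 to 19.45 TPM. IL23A, a cytokine subunit found by the size of its change, stood at 6.99 and 6.57 TPM in CRISPR and at 0.55 to 1.19 TPM elsewhere. IL6, TNF and CCL20 did not pass the filter.

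Interferon-stimulated genes split in direction. Of 19 tested of 36 listed, 1 was higher and 3 lower in CRISPR than in CRISPRi, 2 were lower in DMSO than in CRISPRi, and 3 were higher and 4 lower in DMSO than in CRISPR. MX1, OAS1 and RSAD2, typical targets of interferon, did not pass the filter. Of 11 antigen presentation genes, none was called between CRISPR and CRISPRi or between DMSO and CRISPRi, and 3 were lower in DMSO than in CRISPR. One of them, HLA-B, whose reads are shared with its relatives, was at 60.49 and 61.51, 79.03 and 98.36, and 45.79 and 48.54 TPM.

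Secreted proteases and their inhibitors were mostly higher in CRISPR, with 9 of 16 higher and 0 lower than in CRISPRi and 0 higher and 7 lower in DMSO than in CRISPR. MMP10, stromelysin-2, was at 23.36 and 24.93 TPM in CRISPR against 5.65 to 8.65 TPM in the other 4 libraries. TIMP1, an inhibitor of such proteases, was at 22.34 and 25.2, 46.7 and 47.57, and 14.99 and 14.69 TPM. SERPINB5 (maspin), a squamous serpin, was lowest in CRISPRi instead, at 40.98 and 40.72 TPM against 68.82 and 84.48 in CRISPR and 55.42 and 59.67 in DMSO.

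Part of the amino acid stress response was lower in DMSO. The ATF4 list holds genes that cells induce when amino acids are short or proteins misfold. Of its 27 members, 4 were higher in CRISPR than in CRISPRi, 8 were lower in DMSO than in CRISPRi and 12 were lower in DMSO than in CRISPR, with no member called in the opposite direction. SLC7A11, the cystine transporter, was measured at 6.96 and 8.24 in CRISPRi, 20.34 and 21.16 in CRISPR, and 2.96 and 3.09 TPM in DMSO (log2 fold change -2.55 ± 0.09 for DMSO over CRISPR, reads shared with other genes). ASNS, asparagine synthetase, was at 140.6 and 136.3, 186.6 and 205.8, and 83.03 and 80.73 TPM, and was called in both contrasts with DMSO. ATF3, CHAC1, STC2, SESN2 and TRIB3, further targets of this response, were each lower in DMSO than in both other groups. ATF4 itself, which is controlled mostly in translation, ran from 312.1 to 416.7 TPM and was not called.

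Of 22 p53 targets tested, 4 were higher in CRISPR than in CRISPRi and 3 lower in DMSO than in CRISPRi, and DMSO against CRISPR split into 5 higher and 8 lower. The lower members included genes that other stresses also induce. GADD45A was at 31.55 and 33.47, 63 and 76.96, and 16.42 and 16.48 TPM, and GDF15 at 18.39 and 14.6, 29.07 and 39.14, and 5.64 and 3.02 TPM, with no overlap between groups. CDKN1A, the cell cycle inhibitor p21, had 65.48 and 60.67, 83.01 and 109, and 46.59 and 46.19 TPM. DDB2 and FDXR, by contrast, were higher in DMSO than in CRISPR (log2 fold change 0.82 ± 0.10 and 0.85 ± 0.12), and MDM2 and BAX were not called in any contrast.

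Squamous transcription factors keep the identity of the tissue. Of 20 tested, 1 was higher in CRISPR than in CRISPRi, 2 were lower in DMSO than in CRISPRi and 8 were lower in DMSO than in CRISPR, with none higher in DMSO. SOX2 (chr3:181429713-181432224, plus strand), the factor that the parent study perturbed, was measured at 379.2 and 364.7 TPM in CRISPRi, 396.6 and 427.7 in CRISPR, and 236 and 223.2 in DMSO. Both DMSO libraries were below the other 4, by -0.59 ± 0.06 on the log2 scale against CRISPRi and -0.71 ± 0.06 against CRISPR (edgeR quasi-likelihood, Benjamini-Hochberg adjusted p = 2.41e-07 and 1.59e-09). The first of these lay at the fold threshold and dropped under it without the first CRISPRi library (-0.55) or without DMSO culture B (-0.54), and was -0.56 with a correction for gene length and GC content. SOX2-OT, the long noncoding RNA whose gene spans SOX2 on the same strand (chr3:180707550-181554668), had another order of groups. Like SOX2, SOX2-OT was lower in DMSO than in CRISPRi. That difference was not called in the main fit, but passed with the correction for length and GC content (-0.63). It was highest in CRISPRi, at 83.97 and 84.11 TPM, with 49.19 and 59.31 in CRISPR and 61.32 and 54.21 in DMSO.

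SOX21, a SOX family repressor, and KLF5, a Krüppel-like factor of basal epithelia, were lower in DMSO as well. SOX21 was at 27.77 and 32.06, 36.2 and 41.57, and 14.35 and 13.69 TPM, and was 1.98-fold lower in DMSO than in CRISPRi. KLF5 was at 59.26 and 61.13, 76.19 and 99.95, and 40.63 and 42.74 TPM, and was called only between DMSO and CRISPR (log2 fold change -0.92 ± 0.08), although without the AAVS1 library it passed between CRISPR and CRISPRi as well (0.73). TP63, the master factor of stratified epithelia, ran from 144.8 to 181.9 TPM and was not called, with a log2 fold change of 0.14 ± 0.06, 0.10 ± 0.06 and -0.05 ± 0.06 in the 3 contrasts. MYC was just under the fold threshold in DMSO against CRISPR, at -0.57 ± 0.07, and passed it without the AAVS1 library or without DMSO culture B (-0.59 each) and with limma (-0.67).

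The directions of the calls differed between the adhesion lists. Of 24 genes of the basement membrane and its receptors, 6 were higher and 6 lower in CRISPR than in CRISPRi, none was called in DMSO against CRISPRi, and 5 were higher and 7 lower in DMSO than in CRISPR. ITGA2, a collagen receptor, was at 94.53 and 103.6, 147.6 and 161.7, and 63.25 and 66.8 TPM, highest in CRISPR. HSPG2 (perlecan), a proteoglycan of the membrane itself, was lowest there, with 27.44 and 24.39, 16.01 and 10.45, and 23 and 25.52 TPM. Of 20 junction genes, 4 were higher in CRISPR than in CRISPRi and 5 lower in DMSO than in CRISPR, CLDN4 (claudin-4) among both, at 59.89 and 61.35, 107.2 and 108.2, and 37.76 and 40.83 TPM. Of 16 mesenchymal genes, 3 were higher and 2 lower in CRISPR than in CRISPRi, and 8 were above 0 (median -0.02). In DMSO against CRISPR, 2 were higher and 5 lower. The 2 members given next were both highest in CRISPR and do not stand for the list. VIM (vimentin) was at 237.3 and 267.4 TPM in CRISPR against 113.8 to 122.2 TPM elsewhere, and THBS1 (thrombospondin), which binds matrix, at 433.5 and 413.5 against 187.2 to 237.1 TPM. FN1, ZEB1 and ZEB2, classical genes of the mesenchymal state, did not pass the filter.

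In the paracrine pathways, members were called in both directions. Of 17 Notch genes tested, 5 were higher and 3 lower in DMSO than in CRISPR, and the ligands JAG1 and JAG2 ran in opposite directions. JAG1 was at 57.66 and 69.24, 121.8 and 132.8, and 41.36 and 39.74 TPM, and JAG2 at 143.7 and 161.5, 114.2 and 120.1, and 176.2 and 194.5 TPM. In DMSO over CRISPR the log2 fold change was -1.52 ± 0.07 for JAG1 and 0.80 ± 0.06 for JAG2. Of 23 Wnt and hedgehog genes, 2 were higher and 5 lower in CRISPR than in CRISPRi, and 4 were higher and 4 lower in DMSO than in CRISPR. DKK1, a secreted Wnt inhibitor, was at 86.13 and 96.68, 169.1 and 133, and 51.07 and 44.17 TPM, while LGR4, a receptor that strengthens Wnt signals, was lowest in CRISPR at 20.54 in both libraries, against 42.97 to 58.52 TPM elsewhere. SMO, the hedgehog signal transducer, was likewise lowest in CRISPR, at 22.66 and 22.93 against 36.47 to 47.75 TPM. IGFBP5 and IGFBP2, secreted binders of insulin-like growth factors, were lowest in CRISPR and highest in DMSO. IGFBP5 was at 7.32 and 5.13, 0.32 and 1.07, and 13.66 and 15.88 TPM. Its log2 fold change for DMSO over CRISPR, 4.73 ± 0.23, depended on the low CRISPR counts and was 4.07 without the AAVS1 library and 5.62 without the sg-Chr2.2 library. IGFBP2 was at 436.4 and 386.9, 294.4 and 237.3, and 692 and 651.4 TPM.

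Several lipid synthesis genes were higher in DMSO. Of 25 cholesterol synthesis genes, 5 were higher and 0 lower in DMSO than in CRISPRi, beside 1.65% and 2.62% of all genes. The median log2 fold change of the list was 0.31, and 23 of 25 were above 0. With limma on log2(TPM + 1) the median was 0.19, and 18 were above 0. In DMSO against CRISPR 3 were higher and 0 lower, and 20 were above 0 (median 0.18). There limma gave a median of 0.08, with 14 above 0. HMGCS1, the first committed enzyme, was at 77.53 and 81.15 TPM in CRISPRi, 108.7 and 119.8 in CRISPR, and 118.8 and 129 in DMSO, and IDI1 at 85.27 and 82.83, 105.6 and 110.6, and 144.2 and 124.2 TPM. Both enzymes were called only between DMSO and CRISPRi. SREBF1, the regulator of fatty acid synthesis, was instead graded from CRISPR up to DMSO, with 58.83 and 51.21, 30.74 and 27.38, and 74.39 and 94.18 TPM. SCD, a desaturase of fatty acids, was higher in DMSO than in both other groups. Of the metallothionein list, whose main members bind zinc and copper, 4 of 11 were tested. In DMSO against CRISPR 3 were higher and 1 lower, the latter SLC30A1, a zinc exporter, at 12.8 and 14.34, 15.83 and 17.26, and 7.35 and 7.52 TPM. MT2A was at 258.8 and 226.4, 135.3 and 141.2, and 326.3 and 304.7 TPM, and MT1X and MT1F were likewise lower in CRISPR than in both other groups in all their libraries. Of 29 glycolysis and hypoxia genes tested, 1 was higher and 5 lower in DMSO than in CRISPR (median log2 fold change 0.03). Against CRISPRi, 4 were higher and 2 lower in CRISPR, and 1 was higher and 2 lower in DMSO. ADM (adrenomedullin), a hypoxia target, had 80.12 and 89.04, 45.17 and 47.98, and 113.4 and 96.63 TPM, whereas ARRDC4 and TXNIP, which respond to glucose, were highest in CRISPR. ARRDC4 was at 24.84 and 33.51 TPM there, against 10.47 and 11.57 in CRISPRi and 5.35 and 6.02 in DMSO.

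In the mitosis, oxidative phosphorylation and ribosomal protein lists, differences were small and mostly of one sign in both contrasts with DMSO. Other growth lists did not share this. Of 31 DNA replication genes, 10 were above 0 in DMSO against CRISPRi (median -0.12) and 22 against CRISPR (median 0.11). Of 25 ribosome biogenesis genes, 9 were above 0 in DMSO against CRISPR (median -0.17). All 30 mitosis genes had a log2 fold change above 0 in DMSO over CRISPR, with a median of 0.4, but 4 passed the fold threshold. PTTG1 (securin), which holds sister chromatids until anaphase, was at 235.2 and 222.7, 211.5 and 221.8, and 328.4 and 315.2 TPM, a log2 fold change of 0.70 ± 0.07 that was 0.56 with the length and GC correction and 0.57 with limma, both under the threshold. All 32 nuclear genes of oxidative phosphorylation were likewise above 0 in DMSO over CRISPR (median 0.42, 3 called) and below 0 in CRISPR over CRISPRi (median -0.18, 0 called). The 46 ribosomal protein genes had medians of 0.03, 0.2 and 0.24 in the 3 contrasts. Log2 fold changes also fell with gene length in both contrasts with DMSO (Spearman's rho across 10985 genes, which are not independent, -0.348 against CRISPRi and -0.23 against CRISPR). Between the 2 libraries of a group, taken in a fixed order, rho was -0.188 for CRISPRi, -0.24 for CRISPR and -0.216 for DMSO, so such a trend was also present between replicates. With the correction for length and GC content, the median in DMSO over CRISPR was 0.44 for mitosis, 0.28 for oxidative phosphorylation and 0.04 for ribosomal proteins.

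Of 17 replication-dependent histones tested, 9 were lower in DMSO than in CRISPR and 4 higher and 1 lower in CRISPR than in CRISPRi. HIST1H2AC was at 28.16 and 27.84 TPM in CRISPRi, 47.98 and 87.25 in CRISPR, and 20.96 in both DMSO libraries, so that the CRISPR libraries themselves differed by more than the other groups did from each other. HIST1H4H had a like spread, at 10.84 and 24.29 TPM in CRISPR, with 8.33 and 7.35 in CRISPRi and 2.35 and 1.81 in DMSO. Transcripts of these genes mostly lack poly-A tails, and libraries made from poly-A RNA capture only a part of them.

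PPP1R12C and ZNF10, which are tied to the vectors, were not called in any contrast. PPP1R12C, which holds the AAVS1 site, was at 23.5 and 24.23, 29.75 and 31.46, and 28.09 and 31.25 TPM, and the AAVS1 library was not apart from the sg-Chr2.2 library. ZNF10, the source of a repressor domain in the CRISPRi vector, ran from 0.59 to 3.05 TPM. Of 15 common reference genes, 1 was called, TFRC (the transferrin receptor), with 284.3 and 310.4, 252.6 and 269.9, and 170.5 and 186.4 TPM. The call, in DMSO against CRISPRi, was lost without DMSO culture A (log2 fold change -0.58). ACTB and HPRT1, the reference genes of the parent study's PCR assays, stayed under the fold threshold. ACTB was nonetheless higher in CRISPR, at 4734 and 4597 TPM against 3412 to 3680 TPM elsewhere (log2 fold change 0.33 ± 0.05 over CRISPRi, edgeR quasi-likelihood, Benjamini-Hochberg adjusted p = 2.37e-05).

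Several of the largest differences fell in genes of no list. Lowest in CRISPR were TMEM100, a membrane protein, at 10.97 and 11.21, 0.87 and 0.38, and 15.04 and 12.1 TPM, and MAP2K6, an activating kinase of p38, at 5.33 and 5.76, 1.16 and 1.12, and 9.01 and 9.76 TPM. CHRM4, a muscarinic receptor, dropped from 62.41 and 60.66 TPM in CRISPRi to 13.88 and 12.23 in CRISPR, with 53.79 and 51.92 in DMSO. HTRA1, a secreted serine protease, was at 10.06 and 7.74, 1.66 and 2.04, and 14.45 and 10.55 TPM. All 4 genes separated the CRISPR libraries from the rest. Genes of no list were named by the size of their change, with no overlap required in a contrast. Their separation, here and below, was therefore partly a condition of choice. For DMSO over CRISPR, the log2 fold change of TMEM100, 4.48, was 6.52 without the AAVS1 library and 3.8 without the sg-Chr2.2 library, and that of MAP2K6, 3.75, was 4.4 without the AAVS1 library. SLC9A2, a sodium-proton exchanger, was the reverse, at 6.31 and 7.41 TPM in CRISPR and 0.57 to 1.4 elsewhere.

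Other genes set the DMSO cultures apart. NTS, the precursor of neurotensin, was at 233.3 and 187, 262.6 and 262.1, and 468.5 and 450 TPM, 2.33-fold higher in DMSO than in CRISPRi. PCDH19, a protocadherin, and FHL1, a LIM-domain protein, fell in DMSO, PCDH19 to 11.39 and 12.81 TPM from 27.4 to 30.42 elsewhere, and FHL1 to 11.96 and 9.55 from 32.27 to 37.31. EPHA7, an ephrin receptor, was highest in CRISPRi, at 6.04 and 6.2 TPM, with 3.71 and 3.55 in CRISPR and 1.77 and 1.57 in DMSO. MYEOV, a gene of the 11q13 region often gained in this cancer, had 0 counts in both DMSO libraries. Its mean CPM in CRISPR was 10.08 times the limit of 3 counts per library in DMSO (32 and 13 counts, 6.54 and 2.47 TPM). In CRISPRi it was 2.94 times that limit (9 and 8 counts, 0.55 and 0.85 TPM). These ratios leave out the error of the low counts above the limit.

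The 2 libraries of a group were not always alike. MEGF6, an EGF-domain protein, was at 3.7 TPM with sg-AAVS1 and 0.78 with sg-Chr2.2, beside 4.59 and 3.63 in CRISPRi and 9.16 and 12.86 in DMSO. Its log2 fold change for DMSO over CRISPR, 2.37, was 3.04 without the AAVS1 library. DGKI, a diacylglycerol kinase, was at 4.01 and 8.53 TPM in CRISPR and at 0.86 and 2.43 in CRISPRi, and 0.01 and 0.29 in DMSO. Its log2 difference of -3.54 for DMSO over CRISPR became -2.89 without DMSO culture A and -4.75 without culture B.

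The differences between controls were set beside the perturbations of the series, only where both used different libraries. The perturbed libraries of the same 2 Cas9 experiments (SOX2 guides and e1 guides) were compared with each other for the genes called between their controls. Of the 532 genes higher in CRISPR controls, 509 were tested there and 379 had the same sign (74.5%), with a median log2 fold change of 0.49. Of the 560 lower genes, 508 were tested and 345 had the same sign (67.9%), with a median of -0.33. Over all genes 48.3% were positive. The SOX2 and e1 perturbations themselves differ between these libraries, and their part was not tested.

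Repression of e1, an enhancer near SOX2, was measured by the study in CRISPRi cells, so its fit shares no library with the contrast of DMSO and CRISPR controls. Of the 1000 genes that fell in that fit with the smallest p, 298 were higher and 67 lower in DMSO than in CRISPR controls, against 7.13% and 7.72% of all genes. Their median log2 fold change was 0.369 and 76% were above 0. Of the 943 tested genes among the 1000 that rose, 13 were higher and 328 lower, the median was -0.413 and 14.8% were above 0. Genes that respond to e1 thus also differed between control cultures in which e1 had not been touched. The medians lay nearer to 0 in the other pairs, which were read in contrasts of smaller spread. Over all genes the median absolute log2 fold change was 0.269 in DMSO against CRISPR. It was 0.188 in DMSO against CRISPRi and 0.205 in CRISPR against CRISPRi. In DMSO against CRISPRi, the 1000 genes that fell with SOX2 knockout had a median of -0.021, with 23 called higher and 74 lower (7.4%), and the 884 tested that rose had one of -0.064, with 23 higher and 55 lower (6.22%), beside 1.65% and 2.62% of all genes. In CRISPR against CRISPRi, the genes that fell with the drug ARV-771 had a median of 0.036, with 43 higher (4.3%) and 41 lower (4.1%). Those that rose had a median of -0.063, with 12 higher (1.2%) and 27 lower (2.7%). Of all genes, 3.81% were higher and 4.01% lower in this contrast.

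**Figure D5:**
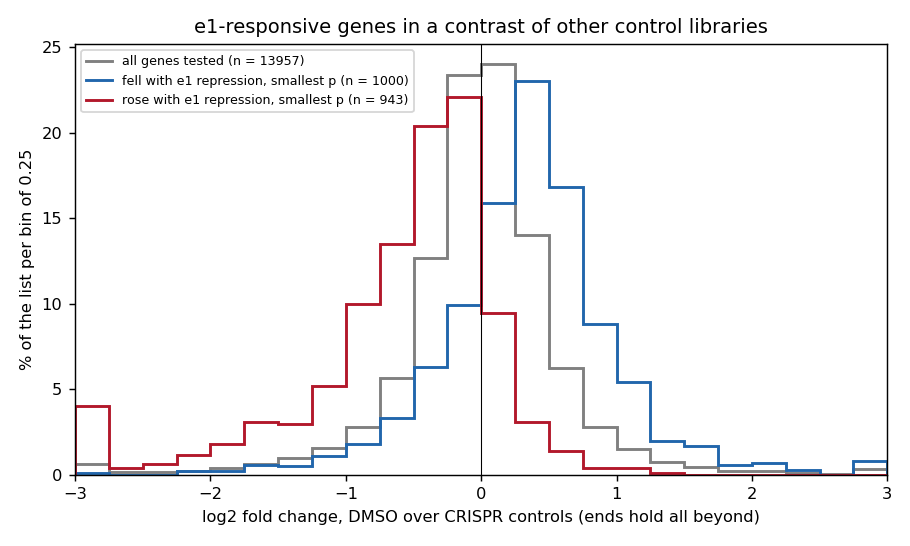
Distribution of log2 fold changes of DMSO over CRISPR controls in bins of 0.25 for all 13957 genes tested (grey), the 1000 genes that fell with e1 repression (blue) and 943 that rose (red), as percent of each list. The blue outline sits to the right of 0, with a median of 0.369, and the red outline to the left, with a median of -0.413.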

How the data were processed

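Poly-A RNA was sequenced from 17 libraries, of which the 6 KYSE140 controls were described. The authors aligned reads to hg19 with Bowtie2 and quantified genes with RSEM (versions not given in the sources used here). The deposited tables give unnormalized expected counts of genes and TPM, which the authors scaled within each library. The deposited FPKM values were not used. Expected counts were rounded and tested with edgeR 4.0.16 in R 4.3.3 (TMM scaling, filterByExpr with a minimum count of 10 and total of 15, quasi-likelihood F test, group as the only term). Standard errors were taken as |log2 fold change| / √F. The test was also run on counts simulated from its own fitted spread, with 3-fold changes in 200 genes averaging 50 counts or more. Such counts hold no effect of guide or culture, so the run cannot bear on those. TPM levels and fold changes of one gene can differ. Effective length was estimated per library, and TPM was not scaled by TMM. For genes averaging 50 counts or more, the median log2 change on log2(TPM + 1) was -0.128 in DMSO against CRISPR. It was -0.093 in DMSO against CRISPRi, beside 0.011 and 0.007 in the edgeR fit. TPM levels in DMSO thus lay somewhat lower than the fold changes imply, and the source of this was not tested.

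Groups came from the sample labels. Named genes were the 8 higher and 8 lower genes of largest change per contrast (called, not overlapping, at least 5 TPM, whole counts within 0.01), 10 fixed genes, and up to 4 members per list of smallest p. Other members were named after their values were seen. Members and lists were chosen with earlier results of these data known. Some genes are not reported here. Of 57820 genes, 96.1% matched GENCODE release 44 on GRCh37, the source of coordinates, and promoters came from RefSeq. Alternatives were other scaling, filters and folds, DESeq2 1.42.0, limma 3.58.1 on TPM after adding 1 or 0.1 and taking log2 (genes averaging 1 TPM or more), other sets of libraries, leaving out each library, and a length and GC correction added after the data were seen. Limits set from 3 counts reflect counting error alone.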

Additional observations from a re-analysis of the deposited data

How the results depend on the processing

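Calls between controls kept within 1.5 times their number with other scaling factors, low-count filters, the length and GC correction, all 13 KYSE140 libraries or only the libraries compared. In the order CRISPR against CRISPRi, DMSO against CRISPRi, DMSO against CRISPR and any difference, the counts were 3495, 2981, 5436 and 6197 with no minimum fold, and 430, 204, 928 and 994 at a fold over 2. With limma on log2 TPM, after adding 1 or 0.1, CRISPR against CRISPRi gave 603 and 623 and DMSO against CRISPRi 205 and 234, and DESeq2 gave 346 for the latter. Leaving out 1 library gave 905 to 1172, 396 to 617, 1811 to 2220 and 2038 to 2437. The 396 came without the second CRISPRi library. The cause of these moves was not tested. With no filter on low counts, the median distance was 0.509 within and 0.627 between groups (0.197 and 0.381 with it).

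Some genes that were not called changed sign. TP63 was -0.06 in DMSO against CRISPRi with both limma fits, and in DMSO against CRISPR -0.1 to 0.02 without 1 CRISPR library and 0.04 with the length and GC correction. ZNF10 was -0.18 and -0.26 with limma, and -0.65 to 0.5 without 1 library (-0.03 without the first CRISPRi library), in CRISPR against CRISPRi, -0.51 to 0.11 without 1 library in DMSO against CRISPRi, and -0.67 to 0.48 in DMSO against CRISPR (0.04 without DMSO culture A). PPP1R12C was -0.08 to 0.02 without 1 library in DMSO against CRISPR. ACTB was -0.03 with both limma fits and -0.01 to 0.08 without 1 library in DMSO against CRISPRi. The medians of the immediate early, inflammatory, ATF4, cholesterol, mitosis, oxidative phosphorylation and ribosomal protein lists kept their sign in each contrast under these scalings and the correction. No paired analysis was possible because the labels give the CRISPR controls guide names and the DMSO controls letters in place of replicate numbers, so no number from the labels is shared with the CRISPRi guides. Genes near 3 counts per library were not measurable at this depth.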
